A study of Mus musculus with 8 samples.

Results

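The genes described here encode the constitutive proteasome, the form that all cells make without an immune stimulus. They were chosen by symbol alone, as all Psma, Psmc and Psmd genes with a number and Psmb1 to Psmb7 on the array, which gave 36 of the 18193 genes measured. Each gene was represented by the probe set with the highest mean over all 8 arrays among those naming that gene alone. Haematopoietic stem cells were sorted as Lin- Sca+ Kit+ from fetal liver (C57/B6 strain), their RNA was amplified and biotin-labelled with kits, and each array holds the cells of 1 mouse. Of the mice, 2 were wild type, 3 heterozygous for ADAR1 (ADAR1 +/-) and 3 ADAR1 null (ADAR1 -/-). ADAR1, the product of Adar, edits adenosine to inosine in double-stranded RNA. Which exons the mutant allele lacks and the gestational age were not stated in the labels. The wild-type and heterozygous arrays together are called the controls below.

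The proteasome is the protease that degrades ubiquitin-tagged proteins in the cytosol and nucleus. Its 20S core is a barrel of stacked alpha and beta rings, in which 3 of the beta subunits, encoded by Psmb5, Psmb6 and Psmb7, cut the substrate. The 19S cap recognises and unfolds the substrate with a base, which holds a ring of ATPases, and a lid, which removes the ubiquitin chain. Interferon induces alternative catalytic subunits that take the place of the constitutive ones in newly made cores, forming the immunoproteasome. Of the 36 genes, 15 encode the 20S core (8 alpha and 7 beta subunits), 9 the 19S base and 8 the lid, and 3 encode chaperones of 19S assembly. The last, Psmc3ip, encodes a partner of a recombinase in meiosis and no proteasome subunit. It met the rule by its letters and is counted throughout.

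All but 1 of the genes (35 of 36) were above background on all 8 arrays, background being the brightest of 27 bacterial control probe sets on the same array. The exception was Psmd10, below it on null array 3 (6.28 linear units). Of all probe sets, 45.6% to 61.2% per control array and 40%, 46.4% and 44.7% per null array were above background. For Gapdh, the ratio of 3′ to 5′ signal, which rises as RNA is shorter, was 4.39 and 4.32 in wild type, 5.78, 4.78 and 9.0 in heterozygous and 7.45, 8.73 and 7.67 in null cells. All null arrays were above wild type and above heterozygous arrays 1 and 2. The brightest probe set of Adar read 7.66 to 17.6 linear units on the controls and 59.7 to 176 on the null arrays, and since the probed and deleted parts of the transcript are not known here it does not check the genotypes. Kit, on which the cells were sorted, read 9.33 to 23.5 over all arrays, little above background, and Ly6a (Sca-1) has no probe set of its own here. The 12 measured stem and progenitor markers of 14 listed summed to 2019 to 2342 linear units on the controls and 1346 to 2459 on the null arrays, with Procr at background throughout. With 2 or 3 mice per group, precision is limited by their number, and p-values describe the spread between these mice.

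Upstream sequences are shown for 5 genes, Psmb5, Psmb6 and Psmd9 because they hold a match to a motif known from proteasome genes close to the start site, and Psmc5 and Psmd11 because they had the smallest p-values in the comparison of null cells with all controls. These were chosen after the values were seen. Each line gives the 150 bases upstream of the RefSeq start in GRCm38.p6, 5′ to 3′ on the strand of the gene, with motif matches in capitals. Psmb5 lies at chr14:54617996-54618145 on the minus strand, and the others on the plus strand, Psmb6 at chr11:70525207-70525356, Psmd9 at chr5:123228040-123228189, Psmc5 at chr11:106256035-106256184 and Psmd11 at chr11:80428465-80428614. The capitals mark TGACNNNGC in Psmb5 and Psmb6, TGACNNNGC with the GGGCGG match it overlaps in Psmd9, and GGGCGG, on either strand, in Psmc5 and Psmd11.
Psmb5: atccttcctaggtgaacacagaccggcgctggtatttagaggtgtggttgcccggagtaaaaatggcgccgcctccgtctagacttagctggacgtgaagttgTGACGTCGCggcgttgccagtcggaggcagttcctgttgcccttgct
Psmb6: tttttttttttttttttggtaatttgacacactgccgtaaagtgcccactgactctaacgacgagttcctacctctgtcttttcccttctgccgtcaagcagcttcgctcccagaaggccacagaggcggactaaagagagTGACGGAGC
Psmd9: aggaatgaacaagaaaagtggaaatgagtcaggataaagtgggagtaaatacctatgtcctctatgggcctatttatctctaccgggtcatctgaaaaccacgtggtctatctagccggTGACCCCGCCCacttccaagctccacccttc
Psmc5: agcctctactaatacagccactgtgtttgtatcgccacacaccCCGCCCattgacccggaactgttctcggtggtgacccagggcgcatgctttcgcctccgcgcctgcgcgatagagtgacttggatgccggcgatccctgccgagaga
Psmd11: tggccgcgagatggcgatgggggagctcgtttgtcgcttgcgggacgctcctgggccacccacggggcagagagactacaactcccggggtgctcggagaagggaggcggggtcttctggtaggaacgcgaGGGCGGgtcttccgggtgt

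TGACNNNGC is the core of the antioxidant response element, bound by the factors Nfe2l1 and Nfe2l2 with small Maf proteins. It started 47 bases upstream of the start in Psmb5, 31 in Psmd9 and 9 in Psmb6. RefSeq promoter windows of 300 bases, 250 before and 50 after the start, were matched for 29 of the 36 genes (31 windows). Searched on both strands, TGACNNNGC stood in 16.1% of these windows and in 12.4% of all 32851 windows, in Psmb5, Psmb6, Psmc6, Psmd9 and Psmd12. The core of the interferon-stimulated response element, searched as GAAA, any 2 bases and GAAA, stood in 9.68% against 3.44% (Psmb3, Psmd4 and Psmd9). CCAAT, the site of the factor NF-Y, stood in 38.7% against 37.4%, and TGATGCAA in 3.23% against 0.895% (Psmd13 alone). GGGCGG, the GC box of Sp1, stood in 58.1% against 35.7% of all windows. The TGACNNNGC match of Psmd9 overlaps a GGGCGG match on the other strand. A match is a description of the sequence only.

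The comparison of null with wild-type and heterozygous cells addresses what loss of ADAR1 does to these transcripts. None of the 36 genes passed the threshold in either comparison (limma, Benjamini-Hochberg adjusted p of 0.05). Most had values below 0, 31 of 36 in null minus wild type (median -0.47 log2 units) and 34 of 36 in null minus heterozygous (median -0.65). Part of this was shared by other bright genes. The 36 were set beside the 4284 genes at least as bright as the dimmest of them, Psma8, called genes of like brightness here. Of these, 64.4% lay below 0 against wild type with a median of -0.27, and 73.9% against heterozygous with a median of -0.44. The name means above this floor only, a mean of 5.64 log2 units, while the median of the 36 was 8.77. The set is thus not matched to the 36 in brightness, and the part of brightness in the gaps was not tested. Over all 18193 genes 50% and 43.7% lay below 0, with medians of -0.00 and 0.06. Because the array mixes RNA from many cells, fewer cells that make a transcript and less of it per cell cannot be told apart.

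The background rate of calls was low: 0.220% of all probe sets passed as higher and 0.107% as lower in null minus wild type, and 0.262% and 0.240% in null minus heterozygous. At an unadjusted p under 0.05, 5 of the 36 genes were lower against wild type (13.9%, where 5.91% of all genes and 13.1% of genes of like brightness were) and 1 was higher, Psmd9 (3.37% of all genes were). Against heterozygous, 10 were lower (27.8%, beside 7.88% and 18.6%) and 0 higher (5.12% of all genes were). Against all 5 controls together, where 0.329% of all probe sets passed as higher and 0.253% as lower, 0 of the 36 passed. Of them 32 lay below 0 there (88.9%, beside 45.9% of all genes and 70.9% of those of like brightness), and at the unadjusted threshold 10 stood lower (27.8%, beside 7.98% and 21.0%) and 0 higher (5.51% of all genes did). These 3 comparisons share the null arrays, so they are not separate evidence.

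Every null array lay below every wild-type array for 9 genes (25%, where 10.8% of all genes and 18.3% of those of like brightness did) and below every heterozygous array for 13 (36.1%, beside 10.3% and 23.1%). For 7 genes the null arrays lay below all 5 controls (19.4%, beside 4.95% and 12.2%). They were Psma5, Psma6 and Psmb7 of the core, Psmc5 and Psmd1 of the base, and Psmd3 and Psmd11 of the lid. Psmd9 was the 1 gene with every null array above every wild-type array (2.78%, beside 9.49% of all genes and 8.19% of those of like brightness). No gene had its null arrays all above the heterozygous ones (12.2% of all genes did) or all above the 5 controls (4.19%).

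Sums of hepatocyte and macrophage markers were lower on every null array than on every control. The 8 measured hepatocyte markers of 10 summed to 218 to 1088 linear units on the controls and 64.7 to 85.5 on the null arrays, 1 of them fell against all controls, and none was at background on all arrays. The 10 macrophage markers summed to 149 to 679 and 65.0 to 77.3, with Adgre1 and Cd163 at background on all arrays, and 0 of them passed. Sums for the erythroid, granulocyte, megakaryocyte, lymphoid, mast cell and endothelial lists overlapped between null and control arrays. The Gapdh ratio also differed between null and wild-type arrays, as given above. The share of probe sets above background overlapped between them. The part of these cells and of RNA quality in the values of the proteasome genes was not tested.

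**Figure D1:**
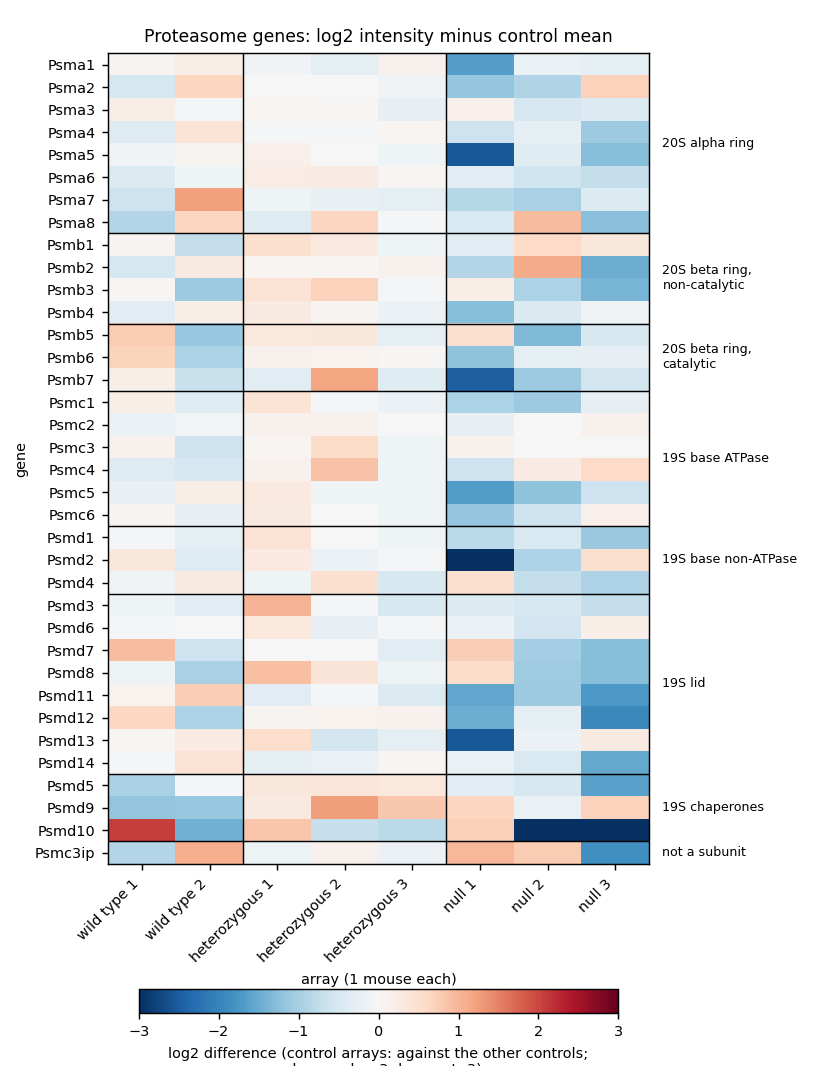
Log2 intensity of each of the 36 genes (rows, by role) on each of the 8 arrays (columns), minus the mean of the 5 control arrays, or for a control array minus the mean of the other 4. Blue is lower and red higher, and values under -3 (Psmd10 on null arrays 2 and 3 and Psmd2 on null array 1) are drawn at -3. Of the 25 genes lower by more than 1 log2 unit on a null array, 8 are so on at least 2, and Psmd11 is the only gene lower by more than 1 log2 unit on all 3.

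**Figure D2:**
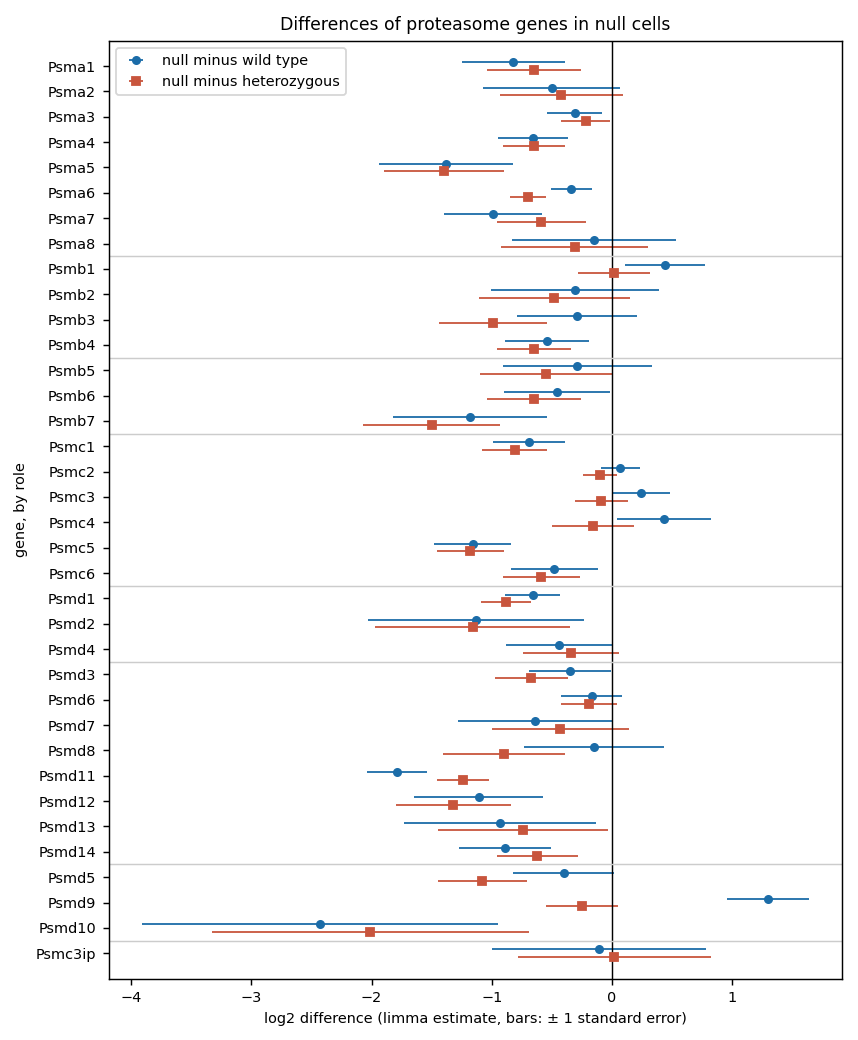
Log2 difference of each of the 36 genes (vertical axis, by role) in null minus wild type (circles) and null minus heterozygous (squares), as limma estimates with bars of 1 standard error. Points lie left of 0 for 31 and 34 of the 36 genes, and none passed the adjusted threshold.

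The alpha ring forms the outer gate of the core. All 8 alpha genes were below 0 in both comparisons, with medians of -0.58 against wild type and -0.62 against heterozygous, and 0 of 8 passed. Psma5 had the lowest differences of the ring, with 770 and 853 linear units in the wild-type mice, 887, 821 and 766 in heterozygous and 140, 639 and 336 in null cells. The null arrays lay below all controls, though null array 2 was near them. The difference was -1.38 ± 0.56 log2 units (SE) against wild type and -1.40 ± 0.50 against heterozygous (limma, adjusted p = 0.635 and 0.386). Against all controls (-1.40 ± 0.42, adjusted p = 0.269) it passed without null array 2.

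Psma6 had a smaller but tighter difference. It read 1277 and 1504 in wild type, 1819, 1851 and 1661 in heterozygous and 1271, 1064 and 974 in null cells, so every null array lay below the controls, null array 1 by little, and the heterozygous arrays were highest. The difference was -0.34 ± 0.17 against wild type and -0.70 ± 0.15 against heterozygous (adjusted p = 0.722 and 0.162). Another Psma6 probe set above background on all arrays gave 0.14 and 0.21, and a further such probe set -0.69 and -1.03. The other alpha genes lay between -0.15 (Psma8) and -0.99 (Psma7) against wild type. For Psma7, wild-type array 2 read 3497 where array 1 read 1267, with heterozygous arrays at 1544 to 1649 and null arrays at 907 to 1331. Psma1 was low on null array 1 (159, beside 439 and 412 on the others and 434 to 554 in the controls). Psma4 stood at 220, 281 and 159 in null cells and at 271 to 425 in the controls, overlapping only wild-type array 1. Psma2 and Psma3 overlapped between all groups. Psma8, an alpha subunit known mainly from testis, also overlapped, at 22.4 to 104 in null cells and 32.6 to 76.5 in controls.

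The beta subunits without a cutting site build the inner rings. Of these 4, Psmb2, Psmb3 and Psmb4 were below 0 in both comparisons and Psmb1 was not. Psmb1 read 333 and 213 in wild type, 413, 375 and 295 in heterozygous and 249, 474 and 401 in null cells, and all groups overlapped. Its difference was 0.44 ± 0.33 against wild type and 0.02 ± 0.30 against heterozygous (adjusted p = 0.816 and 0.984). Psmb2 spread most among null cells, at 534, 2114 and 349, against 1005 to 1055 in heterozygous cells. Psmb4 stood at 323, 581 and 727 in null cells and at 643 to 907 in the controls. Psmb3 stood at 1279 and 694 in wild type, 1604, 1833 and 1213 in heterozygous and 1450, 651 and 481 in null cells.

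The 3 catalytic genes were below 0 in both comparisons, with medians of -0.46 and -0.65, and 0 of 3 passed. Psmb5, the chymotrypsin-like subunit, read 589 and 205 in wild type, 459, 469 and 331 in heterozygous and 542, 153 and 275 in null cells. The groups overlapped, and the 2 wild-type arrays differed by 1.52 log2 units, so the difference from wild type (-0.29 ± 0.62, adjusted p = 0.934) was smaller than that spread. It was -0.55 ± 0.55 against heterozygous (adjusted p = 0.677). Without wild-type array 1 the difference from wild type was 0.47, and that of Psmb6 0.19.

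Psmb6, the caspase-like subunit, read 565 and 230 in wild type, 420, 415 and 400 in heterozygous and 168, 324 and 329 in null cells. The null arrays lay below the tight heterozygous group, and overlapped wild type, whose array 2 was lower than null arrays 2 and 3 (-0.46 ± 0.44 and, against heterozygous, -0.65 ± 0.39, adjusted p = 0.85 and 0.539). Psmb7, the trypsin-like subunit, read 592 and 371 in wild type, 442, 1037 and 437 in heterozygous and 96.1, 253 and 366 in null cells. Its null arrays lay below all controls, null array 3 only just. The difference was -1.18 ± 0.64 against wild type and -1.50 ± 0.57 against heterozygous (adjusted p = 0.747 and 0.410).

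The interferon-induced counterparts of these 3 subunits had the opposite sign. Psmb9, which replaces Psmb6, read 8.65 and 7.52 in wild type, 7.83, 43.5 and 10.1 in heterozygous and 1499, 1081 and 579 in null cells, and 1 of the 2 wild-type arrays was at background. It rose by 6.92 ± 0.76 log2 units against wild type and 6.02 ± 0.68 against heterozygous (adjusted p = 0.0248 and 0.0223). With controls this near background (6.2 to 8.15 linear units), the size depends on the floor, and with a pseudocount of 32 it was 4.66 and 4.34. Against all controls it rose by 6.38 ± 0.62 (adjusted p = 0.00436). That last call held in 16 of 16 alternatives (adjusted p from 9.02e-04 to 0.0327), whereas the call against wild type held in 9 of 17 and that against heterozygous in 10 of 17. Both were lost with arrays weighted (limma, adjusted p = 0.139 against wild type and 0.0612 against heterozygous) and with each pair of groups alone (0.0745 and 0.0505). They were also lost without heterozygous array 1 or 3 or null array 1 (0.0523 to 0.105). Without null array 2 the call against wild type was lost (0.0543). Both were lost too without wild-type array 1 or 2, which leaves 1 array in that group (7.03 and 6.82 against wild type).

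Psmb8, which replaces Psmb5, read 16.4 and 50.5 in wild type, 11.2, 22.3 and 18.6 in heterozygous and 946, 211 and 153 in null cells. The null arrays lay above all controls, and the difference from them was 3.91 ± 0.67, short of the threshold (adjusted p = 0.0609). It passed in 4 of 16 alternatives, with the background filter (0.0382), an intensity trend (0.0394), 1 probe set per gene (0.0431) and the mean of its probe sets (2.13 ± 0.37, adjusted p = 0.0350). Psmb10, which replaces Psmb7, read 65.2 and 31.8 in wild type, 98.2, 101 and 100 in heterozygous and 384, 406 and 101 in null cells, so null array 3 was at the heterozygous level (1.78 ± 0.57 against all controls, adjusted p = 0.305).

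Whether each pair changed unequally was tested on the log2 difference between its genes within each array, which does not compare the level of one probe set with another. Psmb8 minus Psmb5 averaged 0.14 ± 0.87 (SD, n = 3) in null cells and -4.22 ± 1.33 (SD, n = 5) in controls, a change of 4.36. For Psmb9 minus Psmb6 these were 1.90 ± 1.18 and -5.06 ± 1.09, a change of 6.96. For Psmb10 minus Psmb7 they were 0.27 ± 1.96 and -2.88 ± 0.68, a change of 3.15. In each pair the 3 null arrays lay above all 5 controls (exact permutation test over 56 splits, two-sided p = 0.0357 for each, the smallest these arrays allow, and 0.0357 adjusted over 3 pairs). For Psmb10 minus Psmb7 this was narrow, with the lowest null array at -1.86 and the highest control at -2.13. Psmb8 and Psmb9 alone already had every null array above all controls, and the tests were chosen with earlier results known. These p-values are thus no separate evidence for a change of the constitutive genes. Taken alone, the constitutive genes Psmb5, Psmb6 and Psmb7 differed from all controls by -0.44, -0.58 and -1.37, and Psmb8, Psmb9 and Psmb10 by 3.91, 6.38 and 1.78.

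**Figure D3:**
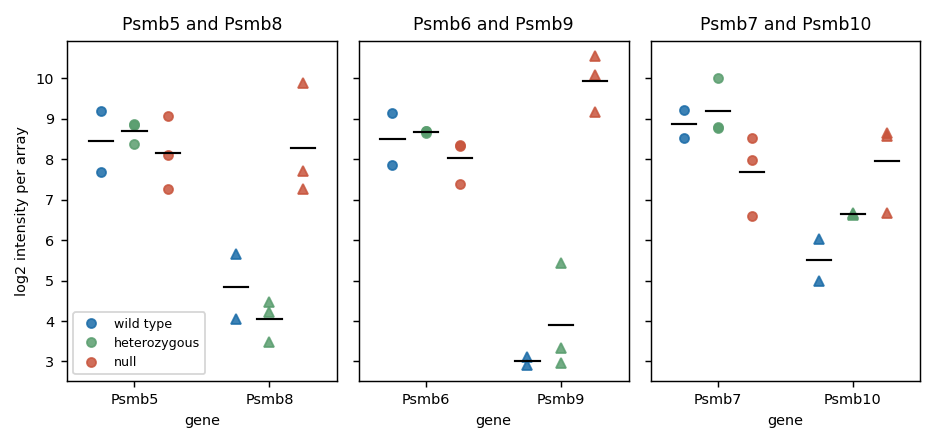
Log2 intensity per array of each constitutive catalytic gene (circles) and its interferon-induced counterpart (triangles), with points coloured by genotype and a bar at each group mean. Psmb8 and Psmb9 lie higher in null cells than in every control, and Psmb5 overlaps between all groups.

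By their brightest probe sets, the 6 ATPase genes of the base divided. Psmc2, Psmc3 and Psmc4 lay above 0 against wild type (0.07, 0.24 and 0.43) and Psmc1, Psmc5 and Psmc6 below (-0.69, -1.16 and -0.48). Another probe set above background on all arrays had the opposite sign for Psmc2 (-0.50), Psmc4 (-0.08) and Psmc6 (0.59). By the brightest, all 6 lay below 0 against heterozygous, with a median of -0.38, though the other probe set of Psmc6 stood at 0.36. Psmc5 had the lowest value of the ring and read 333 and 420 in wild type, 443, 354 and 349 in heterozygous and 118, 163 and 247 in null cells. The null arrays lay below all controls. The difference was -1.16 ± 0.32 from wild type, -1.18 ± 0.28 from heterozygous and -1.17 ± 0.24 from the 5 controls (adjusted p = 0.375, 0.209 and 0.104). Without null array 3 the last passed (0.0256). Psmc1 stood at 1076, 970 and 1758 in null cells and at 1690 to 2597 in the controls, with null array 3 among them. Psmc4 had null array 1 lowest of all (309) and null array 3 at 700, above all controls but 1. Psmc2 was the steadiest ATPase in wild type and heterozygous, at 740 and 779 and at 808 to 882, and null cells overlapped these at 690, 822 and 899.

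The remaining base genes are the scaffolds Psmd1 and Psmd2 and the ubiquitin receptor Psmd4. Psmd1 read 573 and 501 in wild type, 753, 596 and 550 in heterozygous and 337, 428 and 273 in null cells, all null arrays below all controls. The difference was -0.66 ± 0.23 against wild type and -0.88 ± 0.21 against heterozygous (adjusted p = 0.548 and 0.203). Psmd2 varied far more among null mice, at 86.7, 366 and 985 against 562 to 843 in the controls. Psmd4 stood at 667 on null array 1 and at 293 and 253 on the others, with controls at 364 to 622. Its difference was -0.44 against wild type and -0.34 against heterozygous, and another probe set above background on all arrays gave 0.44 and 0.06.

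All 8 lid genes were below 0 in both comparisons, with medians of -0.77 and -0.70, and 0 of 8 passed. Psmd11, a scaffold subunit, was lowest of the 36 against wild type but for Psmd10. It read 412 and 586 in wild type, 324, 375 and 310 in heterozygous and 134, 183 and 117 in null cells. The 3 groups did not overlap, with heterozygous in between. The difference was -1.79 ± 0.25 against wild type (3.46-fold lower), -1.24 ± 0.22 from heterozygous (2.36-fold) and -1.46 ± 0.24 from the 5 controls (2.75-fold). These missed the threshold by little against wild type and all controls (adjusted p = 0.0551 and 0.0555) and by more against heterozygous (0.104).

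Without null array 2 all 3 of these differences for Psmd11 passed (adjusted p = 0.0358, 0.0462 and 0.0355), and without wild-type array 2 the last did (0.0469). With 1 probe set per gene in the fit Psmd11 passed against wild type (0.0416) and all controls (0.0405), and with dim probe sets left out against all controls (0.0487). The values are those of the brightest of its 8 probe sets, whose suffix _s_at marks probes that can match several transcripts. Of the other 7, 5 were above background on all arrays. Against wild type these 5 gave -0.49 to 0.25, and the mean of all 8 gave -0.20 (adjusted p = 0.836). Against heterozygous the 5 all lay below 0, at -0.96 to -0.22, and the 2 dimmer ones at 0.31 and 0.34.

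Psmd3, another lid scaffold, read 130 and 115 in wild type, 244, 136 and 108 in heterozygous and 105, 100 and 85.1 in null cells, so the null arrays lay just below all controls. Psmd8 was the lid gene nearest 0 against wild type (-0.15 ± 0.58). It read 61.4 and 38.7 in wild type, 110, 82.1 and 60.9 in heterozygous and 97.4, 31.8 and 27.5 in null cells, and the groups overlapped. Psmd14, the enzyme that removes ubiquitin chains, read 1409 and 1835 in wild type, 1240, 1275 and 1493 in heterozygous and 1243, 1045 and 499 in null cells. Psmd12, a lid scaffold, stood at 96.8, 226 and 71.3 in null cells, below the heterozygous arrays (287 to 291) but not below wild type (387 and 162). Psmd7, the partner of Psmd14, stood at 760, 225 and 188 in null cells and 759 and 322 in wild type, with null array 1 at the level of wild-type array 1. Psmd13 was low on null array 1 alone (40.9, with 214 and 289 on the others), and Psmd6 differed by -0.17 ± 0.25 against wild type. The other probe set of Psmd6, also above background on all arrays, gave -0.92 ± 0.28 (limma, adjusted p = 0.439), with its null arrays below all controls.

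Psmd5, Psmd9 and Psmd10 encode chaperones that hold ATPases during assembly and leave the finished cap. Psmd9 read 38.9 and 40.0 in wild type, 86.8, 151 and 117 in heterozygous and 118, 65.0 and 120 in null cells. Both mutant groups lay above wild type and overlapped each other (null minus wild type 1.30 ± 0.34, null minus heterozygous -0.25 ± 0.30, adjusted p = 0.341 and 0.731). Null minus wild type was 0.14 at its smallest over the alternatives. The dimmer probe sets of Psmd9, not above background on all arrays, gave 0.16 and -1.03 there. Psmd10, also known as gankyrin, read 279 and 40.2 in wild type, 142, 60.7 and 56.9 in heterozygous and 146, 8.27 and 6.28 in null cells. It had the lowest differences of the 36 (-2.43 ± 1.48 and -2.01 ± 1.32) and also the largest standard errors, and array 1 was the highest in each group (adjusted p = 0.774 and 0.563). Psmd5 was even across heterozygous cells (345 to 353) and lower on all null arrays (232, 207 and 93.6), but wild type (167 and 283) overlapped null. Psmc3ip, which is not a subunit, read 389 and 1170 in wild type, 589, 687 and 579 in heterozygous and 1275, 1083 and 177 in null cells, with no separation.

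On null array 1, 12 of the 36 genes were lower than the control mean by more than 1 log2 unit, on array 2 8 and on array 3 14 (33.3%, 22.2% and 38.9%, beside 35.8%, 15.2% and 25.4% of genes of like brightness). Over the 3 arrays 25 genes were lower by this much at least once (69.4%, beside 54.4% of genes of like brightness). Of these, 17 were so on exactly 1 array, 7 on 2 and 1, Psmd11, on all 3. Low on exactly 1 array were 68.0% of the 25, and 65.6% of the 2330 genes of like brightness that were low at least once, and low on all 3 were 4% and 6.09%. These last shares, taken among the genes low at least once, were near those of other bright genes.

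The median of the 36 genes was similar on the 3 null arrays (-0.53, -0.48 and -0.58), while that of genes of like brightness was -0.56, -0.10 and -0.30. On null array 1 the 36 genes thus lay at the level of other bright genes, and on arrays 2 and 3 below it. The share below all 5 controls was 58.3%, 61.1% and 58.3%, beside 49.7%, 30.6% and 41.1%. The parts of the particle did not follow the same array. The 20S genes had medians of -0.86, -0.43 and -0.49 on null arrays 1, 2 and 3, the base -0.81, -0.63 and 0.00, and the lid -0.31, -0.53 and -1.27.

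Heterozygous mice were the most alike, though a range over 2 wild-type arrays is not on the same footing as one over 3. The range within a group had a median over the 36 genes of 0.35 log2 units in heterozygous, 0.55 in wild type and 1.30 in null cells, and for genes of like brightness of 0.50, 0.57 and 1.49. The null range was wider than the heterozygous one in 34 of 36 genes, the exceptions being Psmc3 and Psmd3 (94.4%, beside 87.3%).

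**Figure D4:**
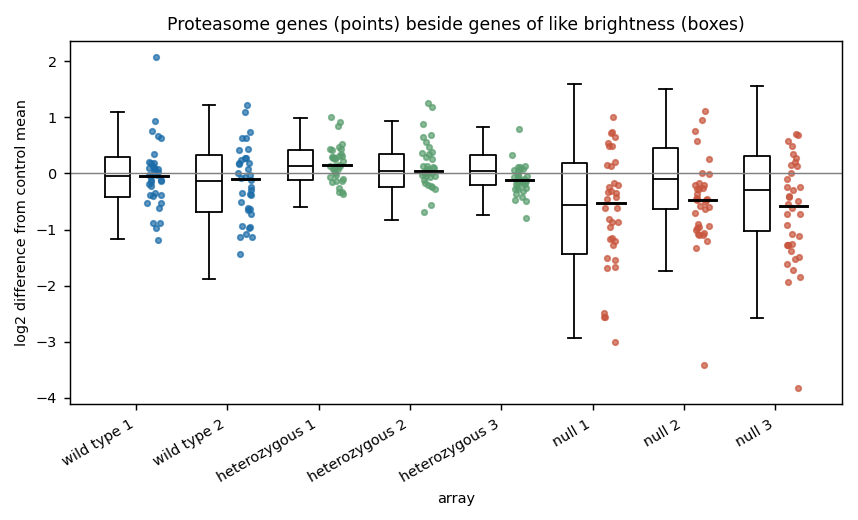
Log2 difference from the control mean (for control arrays, the mean of the other 4) on each array, with 1 point per proteasome gene, a bar at their median, and a box beside them for the 4284 genes of like brightness (quartiles, with whiskers at the 5th and 95th percentiles). The bars of the 3 null arrays lie at -0.53, -0.48 and -0.58, below the box median on arrays 2 and 3.

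Heterozygous cells were compared with wild type to ask whether 1 intact allele leaves a difference. No gene of the 36 passed (limma), where 0% of all probe sets passed as higher and 0.00222% as lower, and at an unadjusted p under 0.05 only Psmd9 was higher (3.0% of all genes were) and 0 were lower (2.90%). Psmd9 differed by 1.55 ± 0.34 (2.92-fold, adjusted p = 0.675), and by 0.40 at its smallest over the alternatives. The median was 0.12, beside 0.15 for genes of like brightness, with 24 genes above 0 and 12 below (33.3%, beside 56.5% of all genes and 37.6% of those of like brightness). The heterozygous arrays all lay above wild type for 5 genes, Psma6, Psmc2, Psmc4, Psmd5 and Psmd9 (13.9%, beside 12.4% of all genes and 20.7% of those of like brightness), and below for Psmd11 (2.78%, beside 17.5% and 8.78%), at -0.55 ± 0.25.

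The scaling of the arrays changed the size of these medians. With quantile and with cyclic loess normalization the median of genes of like brightness in null minus heterozygous went from -0.44 to -0.22 and -0.05, and that of the 36 from -0.65 to -0.43 and -0.25, with 30 and 26 of 36 below 0. Against wild type the 36 went from -0.47 to -0.35 and -0.21 and genes of like brightness from -0.27 to -0.12 and -0.03. The gap between both medians was -0.19 to -0.23 under these scalings. With the mean of each gene's probe sets it was smaller, -0.14 from wild type, -0.11 from heterozygous and -0.13 from the 5 controls. Between heterozygous and wild type the median of the 36 changed sign with cyclic loess (-0.02). Leaving out a null array moved the gap further: against all controls it was -0.21 with all arrays, and -0.39, -0.12 and -0.08 without null array 1, 2 or 3.

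**Figure D5:**
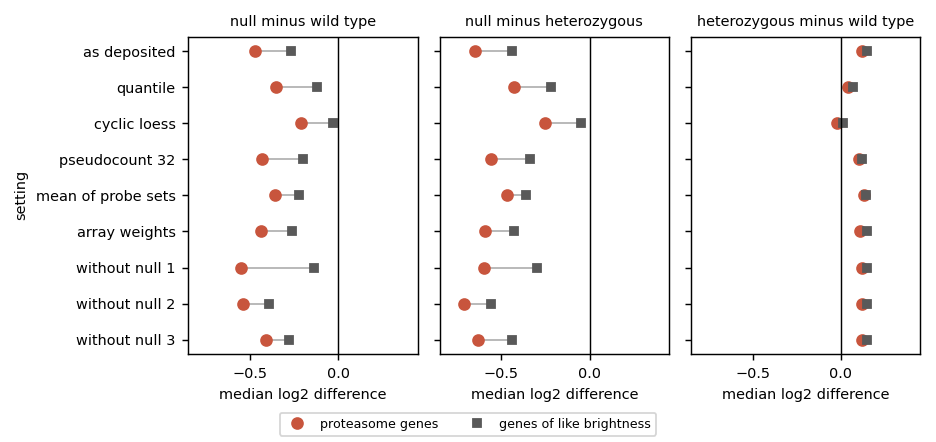
Median log2 difference of the 36 proteasome genes (circles) and of genes of like brightness (squares) in 3 comparisons, with each processing setting on its own line. In the 2 comparisons with null cells the circles lie left of the squares in every setting shown, and between heterozygous and wild type both lie near 0.

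Genes with several probe sets gave mixed signs. Of the 14 with at least 2 probe sets above background on all arrays, all probe sets had the same sign in 7 for null minus wild type, in 10 for null minus heterozygous and in 5 for heterozygous minus wild type.

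Of the other genes of the pathway, 41 were measured, in 5 groups, and only Psmb9 passed in any comparison. Among 8 of 9 immunoproteasome and activator genes, 1 rose, 0 fell and the median against all controls was 0.50. The genes that follow in this group were chosen after their values were seen. Psme1, an activator subunit induced by interferon, read 614 and 536 in wild type, 756, 599 and 699 in heterozygous and 922, 1316 and 827 in null cells, all null arrays above the controls (0.65 ± 0.19, adjusted p = 0.251). Psme3, the activator of the nucleus, was at -0.35 ± 0.24, Psme4 at -0.04 ± 0.63 and the inhibitor Psmf1 at 0.27 ± 1.0. Psmb11, the catalytic subunit of the thymus, was above background on 1 array.

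Of 6 measured assembly factors (of 7), 5 lay below 0 against all controls (83.3%, beside 45.9% of all genes and 70.9% of those of like brightness). Their median was -0.87, beside -0.38 for genes of like brightness, and 0 passed. Psmg3 and Psmg4 are dimmer than the floor of that set. Psmg1, Psmg2 and Psmg3, chaperones of alpha ring assembly, differed by -1.05 ± 0.80, -1.02 ± 0.49 and -1.36 ± 0.57 (adjusted p = 0.631, 0.472 and 0.428). Psmg1 stood at -0.29 without null array 1 and Psmg2 at -0.32 without null array 2. Psmg3 read 29.6 and 13.8 in wild type, 41.1, 47.7 and 74.8 in heterozygous and 7.38, 23.1 and 16.1 in null cells, where wild type overlapped null. Of 7 measured proteasome-bound factors (of 8), 5 lay below 0 (71.4%, beside 45.9% and 70.9%). Their median was -0.37, beside -0.38, so both were near those of genes of like brightness. Usp14, Ube3c and Zfand2a are dimmer than the floor of that set. The deubiquitinase Usp14, the ubiquitin ligase Ube3c and the thioredoxin-like Txnl1 differed by -0.90 ± 0.75, -0.59 ± 0.46 and -1.08 ± 0.45 (adjusted p = 0.662, 0.636 and 0.424), and 0 passed. Null array 1 was low for Usp14 (6.99, below its background of 9.29) and Txnl1 (108), and without it they stood at 0.15 and -0.45. Ube3c stood at -0.27 without it and at -1.05 without null array 3.

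Of 10 measured genes for ubiquitin supply, shuttles and the unfoldase (of 16), 6 lay below 0 against all controls. This was 60.0%, beside 45.9% of all genes and 70.9% of those of like brightness. The median was -0.44, beside -0.38 for genes of like brightness, and 0 passed. Uba6, an enzyme that activates ubiquitin, read 344 and 177 in wild type, 260, 327 and 300 in heterozygous and 88.3, 147 and 71.7 in null cells, all below the controls (-1.49 ± 0.29, adjusted p = 0.0958). The shuttle Ubqln2 and the unfoldase cofactor Nsfl1c differed by -1.14 ± 0.36 and -1.29 ± 0.94 (adjusted p = 0.303 and 0.618). Nsfl1c read 11.7, 374 and 72.9 on the null arrays, and stood at -0.02 without null array 1 and -2.52 without null array 2. Without null array 2, Uba6 and Ubqln2 passed (limma, adjusted p = 0.0330 and 0.0183). At their smallest over the alternatives they were -0.33 and -0.65 against all controls.

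All 10 measured factors for transcription of proteasome genes (of 11) lay below 0 against all controls (45.9% of all genes and 70.9% of those of like brightness did). Their median was -0.44 beside -0.38 for genes of like brightness, and 0 passed. Maff, Ngly1 and Nfyc are dimmer than the floor of that set. Against wild type 7 of 10 lay below 0, with Nfe2l1, Ngly1 and Nfya above it. Nfe2l2, a factor known to bind TGACNNNGC, read 78.0 and 34.6 in wild type, 123, 274 and 83.1 in heterozygous and 28.2, 21.7 and 12.8 in null cells. The null arrays lay below all controls (-2.25 ± 0.61, adjusted p = 0.224). Its inhibitor Keap1 was at -1.28 ± 0.21 (adjusted p = 0.0532) with null arrays at 91.1, 80.8 and 58.1 and controls at 136 to 232, and passed without wild-type array 1 (0.0422) and with 1 probe set per gene (0.0387). It was -0.57 at its smallest over the alternatives. Nfe2l1, named here after its value was seen and the factor that restores proteasome genes after inhibition, did not separate (-0.04 ± 0.27), and Nfyc, a subunit of NF-Y, was at -0.85 ± 0.28 (adjusted p = 0.326).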

How the data were processed

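The deposited values are linear probe set intensities of 8 mouse expression arrays, which the authors normalized with RMA, per the submitters' processing notes (its version is not given in the sources used here). Upper quartiles of the arrays ran from 3.99 to 4.52 (log2), so their distributions were not matched as a quantile step would leave them, and normalization was therefore varied. Of 45101 probe sets, 64 controls were left out and 45037 tested. GEO's platform annotation named 1 gene for 34945, several for 932 and none for 9160. The log2 values were fitted with limma 3.58.1 (R 4.3.3) in a 3-group model of all arrays, and in a 2-group model for null against controls, with Benjamini-Hochberg adjustment over all probe sets. Summaries and exact tests used Python 3.11.15 with scipy 1.17.1. Scripts were checked on simulated data. The table held 0 per-sample columns without a sample.

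The members, lists and tests were chosen with earlier results of these data known. The comparison with genes of like brightness and the 5 printed promoters were chosen after the files were seen. Values on every array were to be given for genes past the threshold, Psmb5, Psmb6, Psmb7 and the 2 highest and 2 lowest genes of each group comparison, and for each related list the genes past the threshold and the 3 of largest difference against all controls. Other genes named were chosen after their values were seen. Alternatives were other normalizations, a pseudocount, a background filter, other probe set choices, array weights, an intensity trend, each pair of groups alone, and each array left out.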

Additional observations from a re-analysis of the deposited data

How the results depend on the processing

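In comparisons of null cells, the median of the 36 genes stayed below 0 under every alternative run. Against wild type it was -0.35 with quantile and -0.21 with cyclic loess normalization, -0.36 with the mean of each gene's probe sets, and -0.58 to -0.41 with 1 array left out. Against heterozygous it was -0.43, -0.25 and -0.47 in that order, -0.56 after adding a pseudocount of 32, -0.59 with arrays weighted, and -0.71 to -0.56 with 1 array left out. Against all controls it was -0.41, -0.26 and -0.43, -0.53 with the pseudocount, and -0.63 to -0.44. Between heterozygous and wild type it was -0.02 to 0.24. The number of the 36 genes past the threshold was 1 with 1 probe set per gene (against wild type and against all controls) and 1 with the background filter (against all controls). With 1 array left out it was 0 to 1 against wild type, 0 to 1 against heterozygous and 0 to 2 against all controls. A lone wild-type array was then assumed to vary like the others. With 1 array left out, the changes within pairs were 4.02 to 4.91 for Psmb8 against Psmb5, 6.33 to 7.50 for Psmb9 against Psmb6 and 2.29 to 4.22 for Psmb10 against Psmb7, and the exact test could not reach 0.05 (smallest possible p 0.0571 or 0.0952). Under the 2 other alternatives run for the pairs, the changes were 3.09 to 4.38, 4.99 to 6.95 and 2.65 to 3.17 in that order. Of 1608 values of single genes under alternatives, 1517 kept their direction and side of the threshold, 17 newly passed it, 15 no longer did and 59 changed sign, 0 of these with a call on either side (the cause was not tested). In null minus wild type, signs changed with quantile normalization for Psmc3ip (0.04) and Psmd8 (0.04), cyclic loess for Psmc3ip (0.13) and Psmd8 (0.08) and the mean of probe sets for Psmc3ip (0.40) and Psmg2 (0.07). With 1 array left out, null minus wild type spanned 0 at -1.05 to 0.47 for Psmb5, -1.11 to 0.19 for Psmb6, -0.91 to 0.80 for Psmc3ip, -0.72 to 0.19 for Psmd8, -2.24 to 0.84 for Psmg1, -1.08 to 0.02 for Psmg3, -1.29 to 0.31 for Ube3c and -1.91 to 0.01 for Usp14. In null minus heterozygous, signs changed with cyclic loess for Psmd9 (0.17), the mean of probe sets for Psmc3ip (-0.09) and weighted arrays for Psmc3ip (-0.14). With 1 array left out, null minus heterozygous spanned 0 at -2.47 to 0.03 for Nsfl1c, -0.18 to 0.29 for Psmb1, -0.49 to 0.93 for Psmc3ip, -0.45 to 0.04 for Psmd9 and -1.68 to 0.24 for Usp14. In heterozygous minus wild type, signs changed with quantile normalization for Ube3c (-0.01), cyclic loess for Ube3c (-0.02) and the mean of probe sets for Psmc3ip (0.49), Psmd11 (0.29), Usp14 (0.08) and Ube3c (-0.18). With 1 array left out, heterozygous minus wild type spanned 0 at -0.51 to 1.02 for Psmb5, -0.46 to 0.84 for Psmb6, -0.09 to 0.66 for Psmb7, -1.60 to 0.02 for Psmb8, -0.93 to 0.66 for Psmc3ip, -1.82 to 0.97 for Psmd10, -0.96 to 2.12 for Psmg1, -0.13 to 0.58 for Psmg2, -0.22 to 0.73 for Uba6, -0.63 to 0.97 for Ube3c and -0.36 to 0.16 for Ubqln2. In null minus all controls, signs changed with quantile normalization for Psmc3ip (0.15), cyclic loess for Psmc3ip (0.28) and the mean of probe sets for Psmc3ip (0.11) and Psmd9 (-0.10). With 1 array left out, null minus all controls spanned 0 at -0.01 to 0.46 for Psmb1, -0.55 to 0.88 for Psmc3ip and -1.77 to 0.15 for Usp14. Low signals limit Psmd10, Psmb9 and Kit, which were near background on some arrays. No paired analysis was made because the labels state no pairing of mice between groups. The array numbers used here follow the order of the samples within each group and pair no arrays.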
